A study of Mus musculus with 4 samples.

Results

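The genes described here are 37 mouse genes of the motile cilium and of its axoneme, the microtubule skeleton that drives the beat of cilia and sperm tails. The list was chosen by the measured values of 2 of them, Drc1 and Ccdc113, which rose strongly on these arrays. Their changes are therefore given as a description, with no test. The other members were named by their known function in the regulation, assembly or structure of motile cilia. Array probes were matched to 23 of the 37 members. No probe was matched to Dnah1, Dnah2, Dnah9, Dnai2, Ccdc40, Armc4, Ttc25, Dnaaf3, Rsph4a, Spag17, Spef2, Tekt3, Tekt4 or Ak7, and these 14 are not analysed here. Dnah5 and Lrrc6 had probes that were not well above background on both arrays of any stage. This left 21 members among 21986 genes above the same filter, 2 of them described and 19 tested. Of the 21, 14 were well above background on all 8 arrays.

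RNA came from whole gonads of wild-type male mouse embryos of the MCH line taken on embryonic day 12.5, 13.5, 14.5 or 15.5 (written E12.5 and so on), with no treatment and no engineered allele in any group. The 2 arrays of a stage are biological duplicates per the series text, and whether animals were pooled is not given in the sources used here. Levels are log2 of the background-subtracted Cy3 signal minus the 75th percentile of the same array, so that a level of 0 equals that percentile and levels of different probes cannot be set against each other. Array 1 of E12.5 and of E13.5 shared slide 1, array 2 of both shared slide 2, and all E14.5 and E15.5 arrays were on slide 3, each slide with its own scan session. Slide and stage therefore cannot be told apart for E14.5 against E13.5 or for E15.5 against E12.5. A gene was called when limma gave a Benjamini-Hochberg adjusted p under 0.05 over all 21986 genes. Such p-values reflect no more than the spread within pairs of duplicates. In whole gonads, fewer cells of a type and less RNA per cell cannot be told apart.

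An axoneme is a ring of doublet microtubules, usually around a central pair. Outer and inner dynein arms make the doublets slide, the nexin-dynein regulatory complex and the radial spokes control that sliding, and tektins run inside the doublet wall. The arms are put together in the cytoplasm by dedicated assembly factors, and Foxj1 and the RFX factors, which bind X-box motifs, switch on many genes of motile cilia. Sperm tails form in spermatids after birth, whereas cells of the fetal testis are known for single, non-motile primary cilia. Multiciliated cells also line the efferent ducts, which derive from mesonephric tubules beside the gonad.

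The promoters of both genes that chose the list are shown with that of Tekt1, which rose at E13.5, and that of Dnali1, which also rose then but held no match, because the X-box half-site lay near the start in the first 3, which is not so for every member with a match. The windows are from RefSeq (build GRCm38.p6) and run from 250 bases before to 50 after an annotated start. They are written 5′ to 3′ on the gene's strand. Capitals mark GTTGCC or its reverse complement GGCAAC, the half-site of the X-box.
Drc1 promoter: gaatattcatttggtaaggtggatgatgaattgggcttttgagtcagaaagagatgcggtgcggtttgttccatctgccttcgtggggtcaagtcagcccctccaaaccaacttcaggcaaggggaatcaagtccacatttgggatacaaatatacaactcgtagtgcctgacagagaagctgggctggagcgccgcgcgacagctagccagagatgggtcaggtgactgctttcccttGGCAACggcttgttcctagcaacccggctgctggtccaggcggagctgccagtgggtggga
Ccdc113 promoter: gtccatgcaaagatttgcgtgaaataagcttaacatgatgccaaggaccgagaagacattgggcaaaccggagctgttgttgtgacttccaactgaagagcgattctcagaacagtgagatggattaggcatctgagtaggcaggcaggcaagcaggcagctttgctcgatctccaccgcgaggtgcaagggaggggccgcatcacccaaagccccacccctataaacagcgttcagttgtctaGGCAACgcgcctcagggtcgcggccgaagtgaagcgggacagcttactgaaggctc
Tekt1 promoter: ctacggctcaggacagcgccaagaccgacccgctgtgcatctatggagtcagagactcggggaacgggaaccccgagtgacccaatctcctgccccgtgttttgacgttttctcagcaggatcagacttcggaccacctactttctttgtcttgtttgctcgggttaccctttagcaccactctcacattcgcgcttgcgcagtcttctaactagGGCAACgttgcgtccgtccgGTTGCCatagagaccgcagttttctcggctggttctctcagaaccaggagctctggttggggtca
Dnali1 promoter: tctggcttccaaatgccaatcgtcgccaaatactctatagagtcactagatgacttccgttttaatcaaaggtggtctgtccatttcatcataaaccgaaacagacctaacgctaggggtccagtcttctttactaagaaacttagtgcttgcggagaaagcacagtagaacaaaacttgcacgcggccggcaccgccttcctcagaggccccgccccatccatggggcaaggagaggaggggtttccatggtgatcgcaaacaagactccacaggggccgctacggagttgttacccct
The Drc1 window is chr5:30281143-30281442 on the plus strand, and its match began 11 bases before the start. That of Ccdc113 is chr8:95533850-95534149 on the plus strand, with a match 6 bases before the start. Tekt1 (chr11:72361833-72362132, minus strand) held matches 35 and 15 bases before the start, and a second annotated start of the gene held none. Dnali1 (chr4:125065608-125065907, minus strand) held none. Of the described or tested members, 17 had a promoter in the table, and in 11 of them at least 1 promoter held the half-site on either strand. The 17 members had 20 promoters, 12 of them with the half-site, against 12.5% of all 32851 promoters in the table. Matches of Hydin, Ropn1l, Tekt2 and Spag6 also lay upstream, at 13, 20, 22 and 37 bases before the start for the nearest one. The match of Rfx2, at -116, and those of Spag16 lay farther upstream, and those of Rfx3 and Zmynd10 began at bases 32 and 40 counted from the start itself as 1. The forkhead core TGTTTAC or its reverse complement GTAAACA, of the kind that Foxj1 binds, was in 0 of these promoters and in 3.65% of all. Among members with a promoter but no tested probe, Tekt3 and Ak7 held the core. Neither motif contains the other, and a match is a stretch of letters and not a measured binding site. Only exact copies of the half-site were sought, so that a window without a match, such as that of Dnali1, was not shown to lack an X-box.

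Over the 3 days, most of the measurable axoneme genes rose. None of the 3 ciliary transcription factors was called higher, a count near the share of all genes. For E15.5 against E12.5, 11 of 19 tested members were called higher and 2 lower, where 17.6% of all genes tested were called higher and 17.4% lower. The tested members had a median log2 change of 1.95 over the whole span, against -0.07 for all genes. That median was 1.71 with the 4 members that were not well above background at E12.5 taken at their bounds. Among the 12 tested members above background on all 8 arrays, 6 rose and 1 fell, with a median log2 change of 1.44. The other 7 tested members were not well above background on every array, and a gene measurable only at late stages had to differ, so their calls are not independent of the filter. With each array left out in turn the count of 13 ran from 10 to 14, and 10 members kept their call each time.

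Among single-day steps, the calls of rising members fell in the first 2. For E13.5 against E12.5, 7 of the 19 rose and 0 fell (1 was lower at an unadjusted p under 0.05), where 2.68% of all genes were called higher and 1.3% lower. Dnali1, Tekt1, Rsph9, Zmynd10, Dnah8, Ropn1l and Dnaaf1 were the 7, and each was higher within slide 1 and within slide 2. For E14.5 against E13.5, 5 of the 19 rose and 1 fell, where 6.44% of all genes were called higher and 6.04% lower. For E15.5 against E14.5, 0 rose and 1 fell, where 0.559% were called higher and 0.0955% lower, although 5 had a higher and 3 a lower level at an unadjusted p under 0.05. Median changes of the tested members were 0.80, 0.44 and 0.29 in the 3 steps, against -0.06, -0.02 and 0.01 for all genes. Among the 12 tested members above background on all 8 arrays these medians were 0.73, 0.08 and 0.32, so that the second was near that of all genes. Of these 12, 5 rose and 0 fell in the first step, 3 rose and 1 fell in the second, and 0 were called in the third. The single-day counts rested on few arrays. For the first step 2 to 4 members were called when any 1 of the 8 arrays was left out, and only Dnali1 kept its call each time. Dnali1 and Zmynd10 were not well above background at E12.5, so that their calls in the first step are not independent of the filter. For the second step the count was 3 when E13.5 array 1 was left out, 2 when its duplicate was, and 2 without E14.5 array 1, and only Zmynd10 kept its call without any 1 array. For the third step it was 0 without any 1 array, but 3 with slides 1 and 2 as a fixed block, where Spag6 and Hydin were called higher (limma adjusted p of 0.032 and 0.0469).

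**Figure D1:**
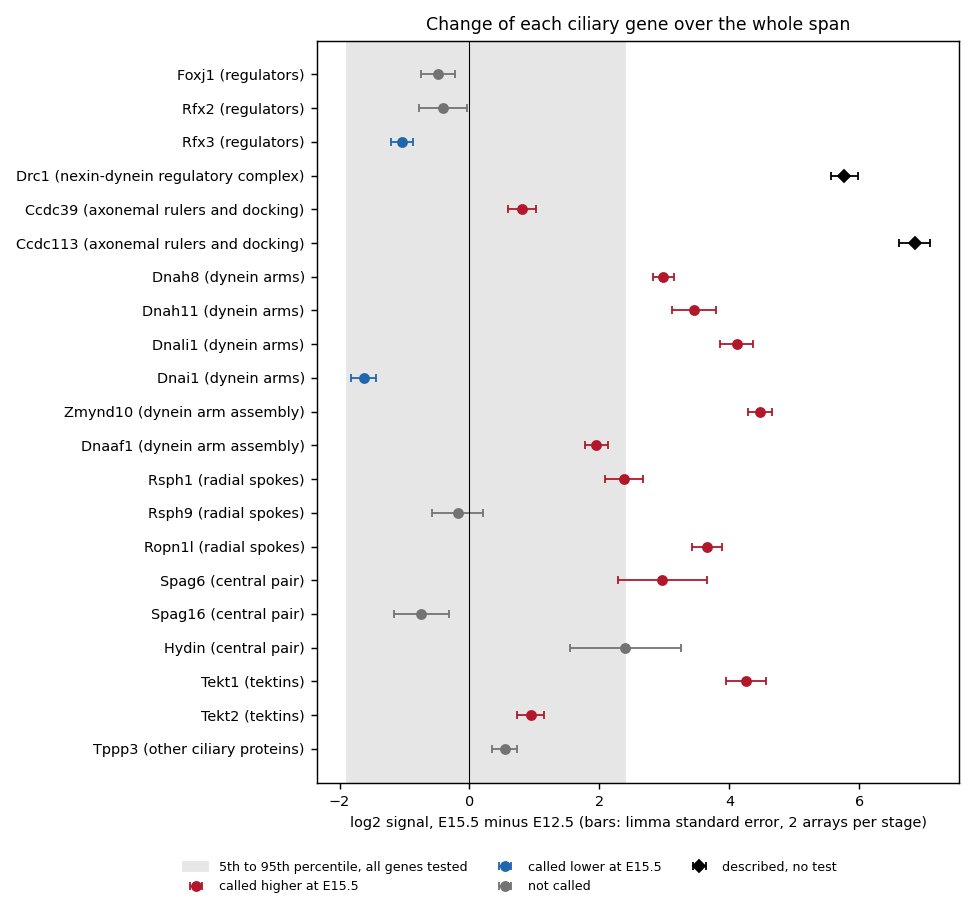
The horizontal axis is the log2 change of E15.5 against E12.5 for each of 21 ciliary genes, grouped by role, with bars for limma's standard error and a grey band from the 5th to the 95th percentile of all genes tested (-1.89 to 2.39). Points of Drc1 and Ccdc113 are descriptions with no test, and those of Zmynd10, Dnali1, Spag6 and Ccdc39 are fitted values of genes not well above background at E12.5. Dnah11 was above background on 1 of 2 arrays at E12.5 and Rfx3 on 1 of 2 at E15.5. Most dynein, spoke and tektin genes lie to the right, Dnai1 and Rsph9 apart, and the 3 regulators at or left of 0.

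Among the regulators, Foxj1, the forkhead factor that drives motile ciliogenesis, stayed well below the 75th percentile on all arrays, with no change called. Its levels were -3.45 and -3.51 at E12.5, -3.75 and -4.11 at E13.5, -4.07 and -4.55 at E14.5, and -4.19 and -3.73 at E15.5. The E15.5 arrays were both below the E12.5 arrays, but the change of -0.48 ± 0.26 was not called (limma adjusted p = 0.197). Rfx2, an RFX factor of ciliary and spermatid genes, ranged from -4.64 to -3.44 over the 8 arrays, and its stages overlapped in all 4 comparisons. The first step of Rfx2 was -0.82 within slide 1 and 0.25 within slide 2.

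Rfx3, an RFX factor of primary and motile cilia, was level for 3 stages and then lower. It was at -4.33 and -4.17 at E12.5, -3.87 and -3.93 at E13.5, -4.17 and -4.03 at E14.5, and -5.24 and -5.34 at E15.5. Both E15.5 arrays lay below all 6 others, and 1 of the 2 was well above background, so that the size of the fall rests partly on a signal near background. Rfx3 fell by 1.19 ± 0.17 on the log2 scale at E15.5 against E14.5 (limma adjusted p = 0.0468) and changed by -1.04 ± 0.17 against E12.5 (limma adjusted p = 0.00528). The call between neighbouring days was lost without any 1 of the 8 arrays, and that for the whole span was kept. A second probe of Rfx3, above background on 3 arrays, was at -6.66 and -6.85 at E15.5 and -5.63 and -5.29 at E12.5.

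Drc1, a subunit of the nexin-dynein regulatory complex, showed the steepest early rise of the list, which is what chose it. Its levels were -2.47 and -2.43 at E12.5, 2.40 and 2.41 at E13.5, 4.14 and 3.67 at E14.5, and 3.29 and 3.34 at E15.5. The first day held the largest step. Its size, its rank and its values within slides are a description only, since they belong to the rise that chose the list. The change of 4.85 for E13.5 against E12.5 ranked 12 among 21986 genes and was 4.87 within slide 1 and 4.84 within slide 2. The next steps were 1.51 and -0.59.

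Ccdc113, a coiled-coil protein of ciliary axonemes, followed a later course. It was at -5.38 and -4.96 at E12.5, -4.22 and -4.21 at E13.5, -0.94 and -0.60 at E14.5, and 1.51 and 1.84 at E15.5. Every step went up, and no 2 stages overlapped, which is a description only, since the rise of Ccdc113 also chose the list. Its first step of 0.95 ranked 1101 among 21986 genes, whereas the whole span of 6.85 ranked 14, against a rank of 57 for the 5.77 of Drc1. Its step of 3.45 for E14.5 against E13.5 crossed slides, and that of 2.45 for E15.5 against E14.5 lay within slide 3. Ccdc39, which with Ccdc40 forms the ruler that sets the axonemal repeat, stayed near background, with 3 of 8 arrays above it. It had at E15.5 a signal at least 1.29-fold higher than at E12.5 (limma adjusted p = 0.0316), with 1 of the 2 E15.5 arrays above background. That call was kept in 3 of the 8 fits that left out 1 array, being lost without either E12.5 array, E13.5 array 2 or either E15.5 array, and the sign turned to -0.36 under the normexp background correction.

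**Figure D2:**
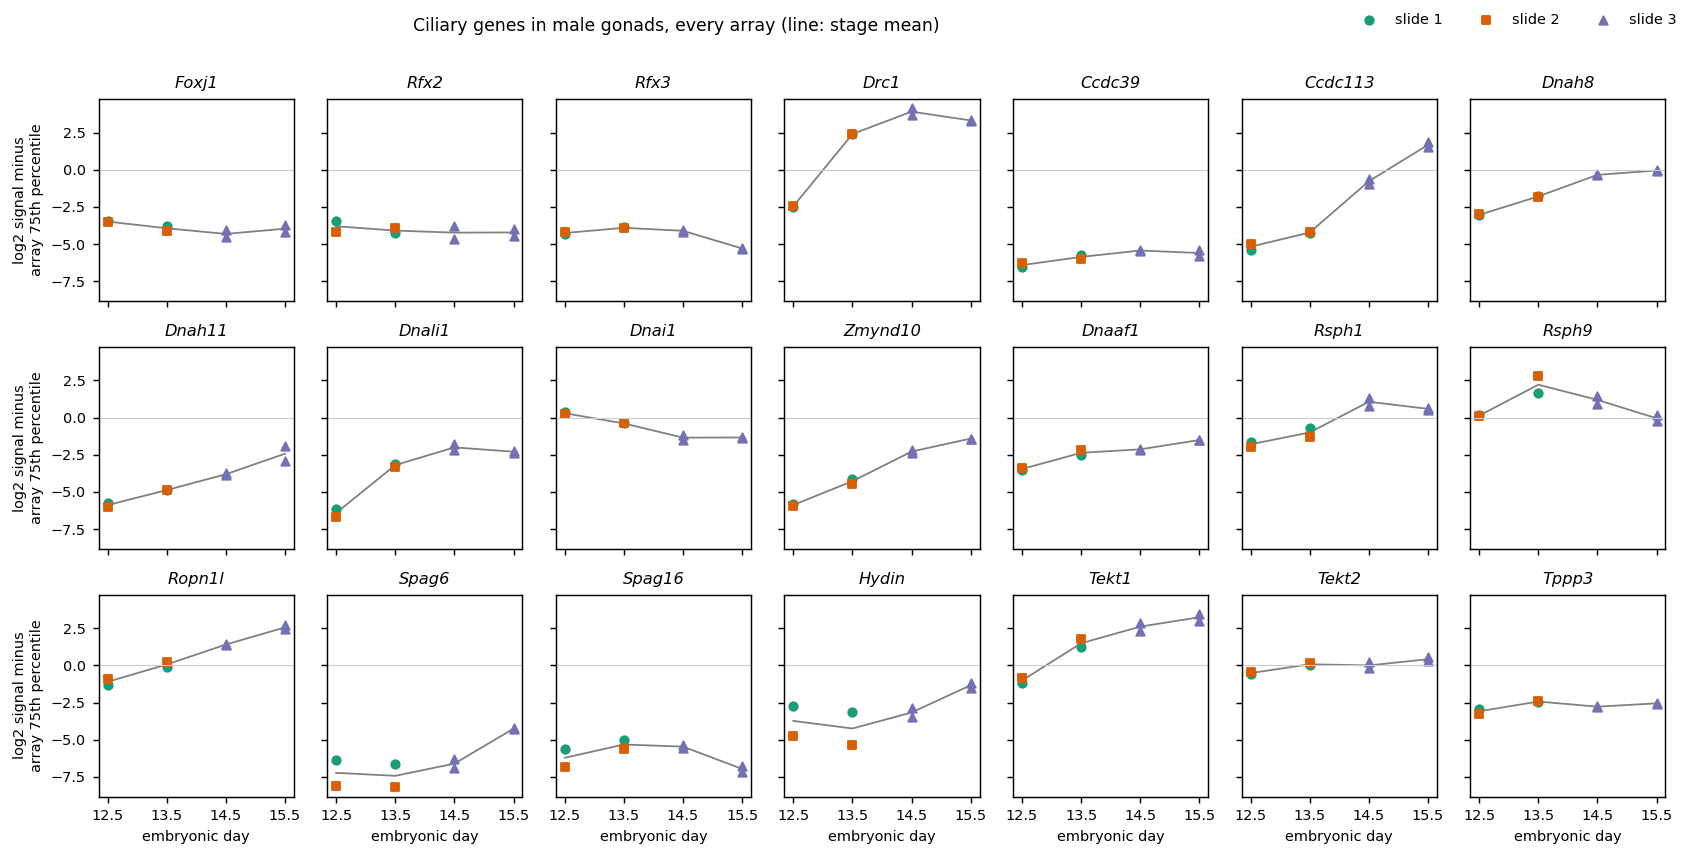
Each panel plots the level of 1 ciliary gene (log2 signal minus the array's 75th percentile) against embryonic day, with 1 marker per array shaped by slide and a line through the stage means. Drc1 jumps between E12.5 and E13.5, Ccdc113 climbs mainly after E13.5, and Foxj1 and Rfx2 show no called change.

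Of the dynein arm genes, Dnah8, an axonemal dynein heavy chain known from sperm tails, rose over both early days. It was at -3.07 and -2.99 at E12.5, -1.77 and -1.81 at E13.5, -0.30 and -0.38 at E14.5, and -0.06 and -0.04 at E15.5. No 2 stages overlapped. The log2 change was 1.24 ± 0.16 for E13.5 against E12.5, 1.45 ± 0.16 for E14.5 against E13.5 and 0.29 ± 0.16 for E15.5 against E14.5, with limma adjusted p of 0.0131, 0.00803 and 0.723. Another probe of Dnah8 was above background on 1 array.

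Dnah11, an outer arm heavy chain, was at -5.73 and -6.04 at E12.5, -4.90 and -4.85 at E13.5, -3.74 and -3.88 at E14.5, and -2.94 and -1.92 at E15.5. It went up in each step without overlap, and no single step was called. Over the whole span it rose by 3.46 ± 0.34 (limma adjusted p = 7.98e-04), with 1 of the 2 E12.5 arrays well above background, so that the size of the rise rests partly on a signal near background. Of Dnah5, another outer arm heavy chain, each of 2 probes was above background on 1 array, and the first was at -3.40 on E14.5 array 1 and between -8.67 and -7.00 on the others.

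Dnali1, a light intermediate chain of the inner arms, had the largest first step of the tested members. Its levels were -6.16 and -6.66 at E12.5, where neither array was well above background, then -3.10 and -3.29 at E13.5, -1.80 and -2.21 at E14.5, and -2.36 and -2.23 at E15.5. It was at least 6.84-fold higher at E13.5 than at E12.5 (limma adjusted p = 0.00223), with a difference of 3.06 within slide 1 and 3.38 within slide 2. At E14.5 it was higher than at E13.5 by 1.19 ± 0.25 (limma adjusted p = 0.0315).

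Dnai1, an intermediate chain of the outer arms, went the other way. It was at 0.36 and 0.22 at E12.5, -0.39 and -0.40 at E13.5, -1.18 and -1.52 at E14.5, and -1.39 and -1.29 at E15.5. All 4 later arrays lay below all 4 earlier ones. The change was -0.96 ± 0.19 for E14.5 against E13.5 (limma adjusted p = 0.0284) and -1.63 ± 0.19 for E15.5 against E12.5 (limma adjusted p = 0.00154). Both comparisons cross slides, and the first step was -0.75 within slide 1 and -0.62 within slide 2.

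Both measurable assembly factors rose. Zmynd10, which helps to preassemble dynein arms in the cytoplasm, was at -5.82 and -5.93 at E12.5, -4.11 and -4.44 at E13.5, -2.39 and -2.18 at E14.5, and -1.41 and -1.41 at E15.5. Neither E12.5 array was well above background, and no stages overlapped. It had at E15.5 a signal at least 21.9-fold higher than at E12.5 (limma adjusted p = 9.29e-05), and at least 3-fold higher at E13.5 than at E12.5 (limma adjusted p = 0.0105). Between E14.5 and E13.5 it rose by 1.99 ± 0.19 (limma adjusted p = 0.00626).

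Dnaaf1, another assembly factor, was at -3.51 and -3.41 at E12.5, -2.53 and -2.21 at E13.5, -2.18 and -2.09 at E14.5, and -1.50 and -1.52 at E15.5. The rise over the whole span was 1.95 ± 0.18 (limma adjusted p = 7.11e-04). A second, dimmer probe of Dnaaf1 did not share it, at -4.93 and -5.21 at E15.5 and -5.57 and -5.21 at E12.5. Lrrc6, an assembly factor that partners Zmynd10, was above background on E13.5 array 1 alone.

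The radial spoke genes took 3 different courses. Rsph1, a spoke head protein, was at -1.62 and -1.98 at E12.5, -0.71 and -1.29 at E13.5, 1.32 and 0.80 at E14.5, and 0.63 and 0.54 at E15.5. It rose by 2.06 ± 0.29 at E14.5 against E13.5 (limma adjusted p = 0.0129), a step that crosses slides, while 0.80 ± 0.29 at E13.5 against E12.5 was not called (limma adjusted p = 0.217). Ropn1l, a sperm tail protein related to a spoke component, climbed at an even pace. Its levels were -1.31 and -0.91 at E12.5, -0.12 and 0.23 at E13.5, 1.39 and 1.40 at E14.5, and 2.42 and 2.68 at E15.5. Ropn1l was higher by 1.17 ± 0.23, 1.34 ± 0.23 and 1.15 ± 0.23 in the 3 steps, with limma adjusted p of 0.0456, 0.0194 and 0.108. No stages overlapped, and a second probe was at 1.39 and 1.57 at E15.5 and -2.46 and -2.51 at E12.5.

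Rsph9, another spoke head protein, peaked at E13.5. It was at 0.16 and 0.10 at E12.5, 1.65 and 2.76 at E13.5, 1.46 and 0.91 at E14.5, and 0.15 and -0.25 at E15.5. The E15.5 arrays overlapped the E12.5 arrays. Rsph9 rose by 2.08 ± 0.39 at E13.5 against E12.5 (limma adjusted p = 0.0415), by 1.49 within slide 1 and 2.66 within slide 2. The later changes of -1.02 and -1.23 per day were not called, and the whole span gave -0.18 ± 0.39 (limma adjusted p = 0.748).

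Genes of the central pair were dim or uneven. Spag6, a central pair protein, was well above background on the E15.5 arrays alone, at -4.22 and -4.29, and between -8.20 and -6.28 on the other 6. It had at E15.5 a signal at least 3.28-fold higher than at E12.5 (limma adjusted p = 0.0174), a call lost without E12.5 array 2 or without either E15.5 array. The near-identical copy Spag6l may share this signal.

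Hydin, another central pair protein, was at -2.75 and -4.72 at E12.5, -3.14 and -5.35 at E13.5, -3.44 and -2.90 at E14.5, and -1.50 and -1.17 at E15.5. The slide 2 array was about as far below its slide 1 duplicate at E12.5 as at E13.5, and that gap was close in size to the rise. The whole span of 2.40 ± 0.85 was not called (limma adjusted p = 0.0695), but it was in 3 of the 8 fits that left out 1 array, without E12.5 array 1 or without either E13.5 array. With 1 array left out it ran from 1.41 to 3.39. Spag16, also of the central pair, was above background on 5 arrays and on neither at E15.5, and no change of it was called.

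Tekt1, a tektin of ciliary and flagellar doublets, was among the largest risers. It was at -1.21 and -0.84 at E12.5, 1.20 and 1.76 at E13.5, 2.87 and 2.33 at E14.5, and 3.01 and 3.45 at E15.5. No stages overlapped, and every array of a later day lay above every array of the day before. The rise was 2.51 ± 0.31 at E13.5 against E12.5 (limma adjusted p = 0.0111) and 4.26 ± 0.31 at E15.5 against E12.5 (limma adjusted p = 2.95e-04). A second probe of Tekt1 gave 1.07 and 1.42 at E15.5 and -3.34 and -2.96 at E12.5.

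Tekt2, a tektin needed for sperm motility in mice, had a smaller change. It was at 0.28 and 0.54 at E15.5 and -0.61 and -0.44 at E12.5, a rise of 0.94 ± 0.21 (limma adjusted p = 0.0168). That call was lost without either E12.5 array or without E15.5 array 2. Tppp3, a microtubule-bundling protein, stayed between -3.27 and -2.40 on all 8 arrays with no change called.

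**Figure D3:**
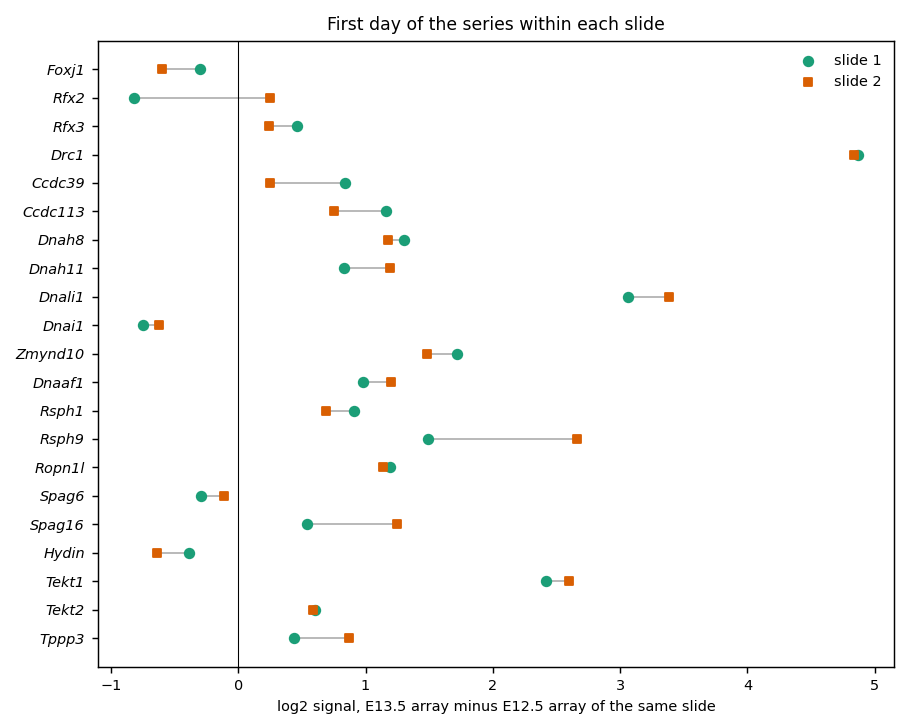
The horizontal axis is the log2 difference of the E13.5 array from the E12.5 array of the same slide, for 21 ciliary genes, with a circle for slide 1 and a square for slide 2. Drc1 stands at 4.87 and 4.84, Dnali1 at 3.06 and 3.38, and Rfx2 falls on both sides of 0.

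Axoneme genes outside the 37 members also mostly rose. Of 61 further genes of dynein arms, the regulatory complex, spokes and ciliary and flagellar associated proteins, 25 could be tested. Over the whole span 16 rose and 2 fell, where 17.6% of all genes were called higher and 17.4% lower, with a median of 1.43. By limma 6, 6 and 0 rose in the 3 steps, where 2.68%, 6.44% and 0.559% of all genes did, and 0 fell in each, and in the third step 4 were higher and 2 lower at an unadjusted p under 0.05. Those that rose first included Meig1, Iqcg, Nme5 and Ccdc65, by 2.04 ± 0.27, 1.95 ± 0.23, 1.83 ± 0.26 and 1.67 ± 0.17 at E13.5 against E12.5, with limma adjusted p of 0.0131, 0.00909, 0.0156 and 0.00553. Ccdc65 encodes a further subunit of the nexin-dynein regulatory complex, and Meig1 is needed for sperm tail formation in mice. Iqcg did not keep its rise, at 1.35 and 1.39 at E15.5 against 1.12 and 1.14 at E12.5. Its whole-span change of 0.24 ± 0.23 was not called (limma adjusted p = 0.432). Cfap57 rose by 1.76 ± 0.28 at E14.5 against E13.5 and by 3.93 ± 0.28 at E15.5 against E12.5, with limma adjusted p of 0.017 and 2.84e-04. Cfap206, not well above background before E14.5, was at least 2.65-fold higher at E14.5 than at E13.5 (limma adjusted p = 0.00402). A gene measurable only at later stages had to differ, so such calls, and the counts that hold them, are not independent of the filter. The same holds for each gene given as at least N-fold higher in the lists below.

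Other assembly genes did not move as a group. Of 12 listed, 10 were tested, and 2 rose and 1 fell over the whole span, with a median of 0.08, where 17.6% of all genes rose and 17.4% fell. Daw1, which helps to bring outer arms to the axoneme, had at E15.5 a signal at least 3.01-fold higher than at E12.5 (limma adjusted p = 2.9e-04). Daw1 was well above background on 4 of 8 arrays, so that its call is not independent of the filter. Spag1 rose by 0.80 ± 0.17 (limma adjusted p = 0.0138), and Ruvbl2, an ATPase with many roles outside cilia, changed by -0.67 ± 0.19 (limma adjusted p = 0.0325).

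Further regulators of multiciliation or ciliary genes gave counts near the shares of all genes. Of 14 listed, 8 were tested, and 0 were called by limma in any single-day step. Of all genes, 2.68%, 6.44% and 0.559% were called higher in the 3 steps, and 1.3%, 6.04% and 0.0955% lower. At an unadjusted p under 0.05 the counts of these regulators were 0 in the first step, 3 in the second and 1 in the third. Over the whole span 1 was higher and 1 lower, where 17.6% and 17.4% of all genes were. Deup1, which multiplies centrioles in multiciliated cells, had at E15.5 a signal at least 4.06-fold higher than at E12.5 (limma adjusted p = 0.0053). Deup1 was well above background on 4 of 8 arrays, so that its call is not independent of the filter. It was at -3.82 and -4.06 at E15.5 and -8.04 and -6.41 at E12.5. Rfx7 changed by -1.15 ± 0.24 (limma adjusted p = 0.0122).

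Intraflagellar transport and BBSome genes, which build and serve primary as well as motile cilia, stayed near the median of all genes. Of 42 listed, 37 were tested, and 4 rose and 4 fell over the whole span, where 17.6% of all genes rose and 17.4% fell, with a median of 0.12. Traf3ip1, a transport particle subunit, changed by -1.87 ± 0.31 (limma adjusted p = 0.00547), while Dync2li1, of the retrograde motor, rose by 1.45 ± 0.35 (limma adjusted p = 0.0204). Kif17, a kinesin of cilia and neurons, was at least 2.63-fold higher at E13.5 than at E12.5 (limma adjusted p = 0.0328).

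Of 18 listed genes of the sperm tail and of spermatids, 11 were tested. Over the whole span 5 rose and 2 fell, where 17.6% of all genes rose and 17.4% fell, so that the count of lower genes is near the background, and the median was 0.24. Akap4, a scaffold of the fibrous sheath, had at E15.5 a signal at least 5.51-fold higher than at E12.5 (limma adjusted p = 0.00393), and Spa17, a sperm surface and tail protein, rose by 2.46 ± 0.22 (limma adjusted p = 5.54e-04). Prm1, a protamine of sperm chromatin, changed by -5.55 ± 0.59 (limma adjusted p = 0.00108), and its first step was not called. The fall of Prm1 lay in E14.5 against E13.5, at -6.28 ± 0.59 (limma adjusted p = 0.00585), where slide and stage cannot be told apart. Akap3, Odf1, Catsper1 and Catsper4 were above background on 0 arrays.

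**Figure D4:**
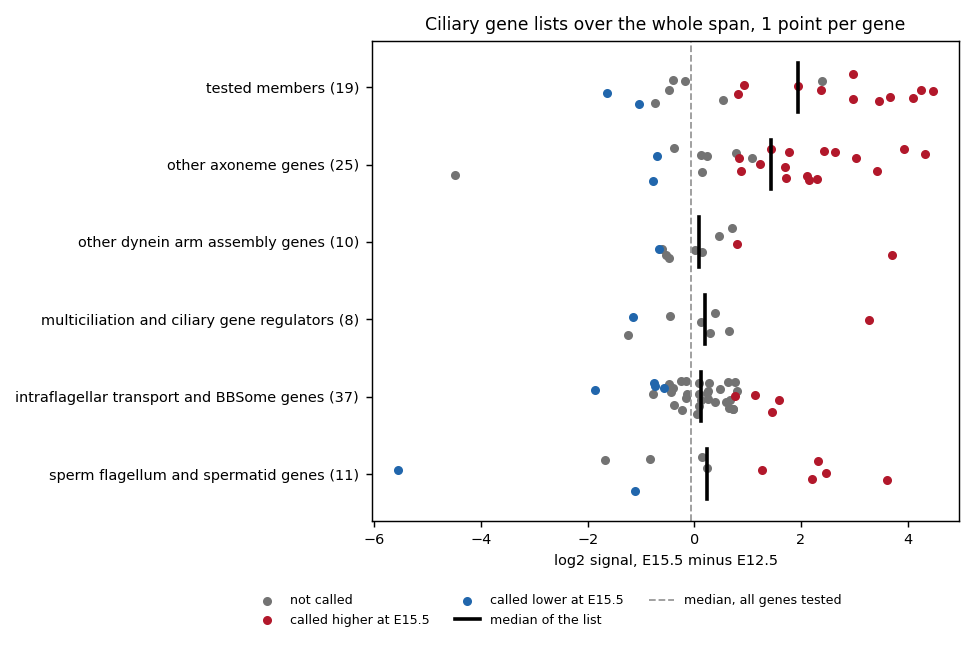
The horizontal axis is the log2 change of E15.5 against E12.5, with 1 point per tested gene in each of 6 ciliary or sperm gene lists, a bar at each list's median and a dashed line at the median of all genes tested (-0.07). The medians of the tested members (1.95) and of other axoneme genes (1.43) lie right of those of the other lists (0.08 to 0.24).

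Markers of several cell types changed over the same span. For E13.5 against E12.5, 2.68% of all genes were called higher and 1.3% lower. These shares were 6.44% and 6.04% for E14.5 against E13.5, and 17.6% and 17.4% for E15.5 against E12.5. The summed signal of 8 germ cell markers, in multiples of the array's 75th percentile, was 36.7 and 35.6 at E12.5, 81 and 85.4 at E13.5, 132 and 101 at E14.5, and 106 and 133 at E15.5. At E13.5 against E12.5, 5 of these 8 rose, among them Dnmt3l and Nanos2, at E14.5 against E13.5 2 rose and 3 fell, and at E15.5 against E12.5 4 rose and 3 fell. The 3 that fell were Nanos2, Dazl and Pou5f1 in both of these comparisons. Over the whole span they changed by -3.38 ± 0.41, -1.61 ± 0.24 and -1.07 ± 0.26, with limma adjusted p of 0.00178, 0.00359 and 0.0208. For 5 fetal Leydig cell markers the sum was 30.8 and 23.7 at E12.5, 100 and 130 at E13.5, 111 and 139 at E14.5, and 159 and 134 at E15.5, and all 5 rose at E13.5 against E12.5. By limma 0 of 5 were called at E14.5 against E13.5, a count near the share of all genes, with a median change of 0.14. Sertoli cell markers summed to 99.9 and 99.1 at E12.5, 91.7 and 94 at E13.5, 83.5 and 62.8 at E14.5, and 60.5 and 74.8 at E15.5. Cyp26b1 was the 1 of 6 called over the whole span, at -1.78 ± 0.17 (limma adjusted p = 7.88e-04), a count near the share of all genes. Those of the surface epithelium summed to between 2.83 and 3.77, but single markers moved. Over the whole span Msln rose by 4.22 ± 0.23 (limma adjusted p = 1.31e-04) and Upk1b by 0.98 ± 0.22 (limma adjusted p = 0.0173), while Lrrn4 changed by -1.91 ± 0.27 (limma adjusted p = 0.00284). Nephric duct and mesonephros markers went the other way, with sums of 4.83 and 4.37 at E12.5, 1.93 and 2.31 at E13.5, 1.96 and 1.37 at E14.5, and 1.26 and 1.35 at E15.5. These sums rest mostly on bright markers such as Lhx1 and Emx2. Of 9 tested, 5 fell and 1 rose at E15.5 against E12.5, and Ret was above background on 0 arrays. Lhx1 fell the most, at -5.65 ± 0.18 (limma adjusted p = 4.52e-05), while Emx2 was not called (limma adjusted p = 0.226). Pax8 rose, with a signal at least 2.95-fold higher at E15.5 (limma adjusted p = 0.0307). The part of any of these cell types in the ciliary changes was not tested.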

How the data were processed

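RNA of whole male gonads was measured on 8 one-colour Agilent arrays, 2 per stage. The deposited scanner files hold linear spot intensity, from which, per the file headers, Feature Extraction (9.1.3.1 for E12.5 and E13.5, 9.5.3.1 for E14.5 and E15.5) had subtracted background. The submitters' processing notes name version 9.5. The authors also deposited a stage table in which each value is a probe's ratio to some centre, with column medians of 1.14, 1, 0.898 and 0.859 from E12.5 to E15.5. Its scale, its centring and how arrays were combined are unknown. It served to check directions, and the 7, 6, 1 and 13 calls of members all had the same sign there.

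The 45018 spots of an array gave 41174 probes that were not controls, with spots marked as outliers left out unless all spots of a probe were marked. From each log2 processed signal the 75th percentile of its array was subtracted. A probe entered when both arrays of 1 stage or more were well above background (28188 probes), and the probe of highest mean stood for a gene. RefSeq accessions in the files, matched without versions to GRCm38.p6, gave 22951 probes (55.7%) 1 symbol, 0 several and 18223 none. Dnai1 is listed there as Dnaic1. Probes well above background ran from 24810 (60.3%) to 28724 (69.8%) per array and median signals from 69.6 to 176. The number of arrays limits the precision. No column of unknown sample was found (0).

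All 8 arrays entered 1 model with a mean per stage (lmFit and eBayes, limma 3.58.1, R 4.3.3), with 4 residual degrees of freedom and 2.57 prior ones, and with 4 comparisons. The script was tested on simulated data. Values after ± are limma's standard errors with 2 arrays per stage. "At least N-fold" sets the brighter stage's mean against, per array of the dim stage, the higher of the probe's own level and the lowest signal well above background. A change of Drc1 or Ccdc113 was left untested in every comparison, where a test for E15.5 against E14.5 had been planned. Array numbers pair samples only where slides are shared: deviations of array 1 correlated at 0.65 between E12.5 and E13.5, at -0.59 between E14.5 and E15.5, and between -0.08 and 0.07 otherwise.

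Every member is accounted for by role. From each further list the called genes of largest change, up to 4 per comparison, were eligible to be named. The members, lists and tests were chosen with earlier results of these data known. Alternatives changed the scaling, the filter, the probe rule, the background correction, the samples fitted and the block.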

Additional observations from a re-analysis of the deposited data

How the results depend on the processing

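Counts of members called under other settings are given here in the order E13.5 against E12.5 (7 as reported), E14.5 against E13.5 (6), E15.5 against E14.5 (1) and E15.5 against E12.5 (13). The shares of all genes called under these settings, also with 1 array left out, are not given. A changed count of members can therefore go with a change in calls over all genes. Leaving out 1 array at a time gave 2 to 4, 2 to 5, 0 to 0 and 10 to 14. The array number as a replicate block gave 4, 5, 0 and 12. Since array numbers of E14.5 and E15.5 ran against each other, a crossed pairing was added after seeing the data and gave 5, 8, 1 and 12. Slides 1 and 2 as a fixed block, also added, gave 7, 7, 3 and 14, and slide as a random block gave 7, 6, 1 and 13. No filter on dim probes gave 4, 3, 0 and 13, fitting only the arrays compared gave 1, 3, 0 and 12, and probes above background on all 8 arrays gave 5, 5, 0 and 7, with fewer members tested. For E15.5 against E14.5 the count was also 0 with arrays scaled to their medians, with quantile scaling and with the mean of a gene's probes. Scaling to medians moved the median of all genes by -0.14 there, and Rfx2 and Dnai1 changed sign under it and under quantile scaling. Normexp could not use mean signals, which the files lack, so median signals were used, a choice made after seeing the data. It gave 0, 0, 0 and 5. On E13.5 array 2 the largest local background was 32329.5 against a median of 60, and with such values replaced the counts were 5, 7, 1 and 14. Under plain normexp Dnali1 and Zmynd10 changed by -0.06 and -0.11 for E14.5 against E13.5. Ccdc39 changed by -0.36 for E15.5 against E12.5 under normexp with and without the replacement, and the cause was not tested. Over all settings, 1539 values kept their direction and their side of the threshold, 130 were no longer called, 22 became called, 41 moved and 4 reversed. A duplicate per stage and signals close to background limit what can be said of Ccdc39, Spag6, Spag16, Dnah5 and Lrrc6.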

Other observations

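Outside the 37 members, the genes with a symbol whose 8 centred levels lay nearest to those of Drc1, by Euclidean distance, were Ctag2 (1.10), Rrad (1.27), Fabp9 (1.34), Gzma (1.38) and Pkd2l1 (1.43). Pearson's r over the 8 arrays ran from 0.980 to 0.997 among these 5, and the arrays share stages and slides, so it is a description only. Rrad, a small GTPase, had stage means of -3.94, 1.94, 3.25 and 2.86 from E12.5 to E15.5, and Fabp9, a fatty acid binding protein known from sperm, -5.42, -1.52, 0.58 and 0.60. Nearest to Ccdc113 were Gstt4 (1.42), Dpt (1.45), Slc22a2 (1.55), Krt25 (1.57) and Chl1 (1.60), with r from 0.979 to 0.994. Dpt, a protein of the extracellular matrix, had stage means of -8.20, -6.75, -4.27 and -2.17, and Chl1, a neural cell adhesion protein, -7.50, -6.22, -2.51 and -1.35. Stage means under -6.34, the lowest signal well above background on any array, hold for all 5 of these at E12.5 and for Ctag2, Gzma and Pkd2l1 there. They also hold for Gstt4, Dpt, Slc22a2 and Krt25 at E13.5. The distances and r of all these genes therefore rest partly on values near background. Members were left out of the search beforehand, and none of the 10 genes is on the further lists of ciliary genes. Those lists do not hold every gene of cilia.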
